A study of Mus musculus with 9 samples.

Results

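The 10 acetylcholine receptor genes described here are 6 subunits of nicotinic receptors (Chrna3, Chrna4, Chrna5, Chrna7, Chrnb2 and Chrnb3) and 4 muscarinic receptors (Chrm1, Chrm2, Chrm3 and Chrm4). They were taken by gene symbol from a named list, chosen with earlier results of these data known, out of 18138 genes in the deposited count table. All 10 were among the 14756 genes that passed the filter on low counts and were tested, but Chrna3 and Chrnb3 passed it through hypidone and control libraries, with a mean under 10 counts in MCAO libraries. RNA was sequenced from mouse brain in 9 libraries, 3 per group. The hypidone group had middle cerebral artery occlusion (MCAO), surgery that blocks a brain artery to model stroke, followed by hypidone hydrochloride, an experimental antidepressant that acts on serotonin reuptake and serotonin receptors, at 5 mg/kg for 7 days. The MCAO group had the surgery with no drug named in its labels, and the control group is labelled only as control. Not given in the sources used here are strain, age, sex, brain region, hemisphere, the time of sampling after surgery, and whether MCAO mice got vehicle or control mice a sham operation. Libraries are named by group and by the number in their title (hypidone 2, 7 and 8, MCAO 4, 5 and 6, control 4, 5 and 6). Since no label states that libraries of 1 group are of different mice, their spread, on which every p-value rests, may be technical.

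Acetylcholine acts through both classes of receptor. Nicotinic receptors are cation channels built from several subunits around a pore. In the brain, Chrna4 and Chrnb2 form the main high-affinity type, Chrna7 forms a calcium-permeable type by itself, and Chrna5 and Chrnb3 are accessory subunits that need partners to form a channel. Muscarinic receptors are single proteins coupled to G proteins: Chrm1 and Chrm3 signal through Gq to phospholipase C and calcium, Chrm2 and Chrm4 through Gi to lower cyclic AMP and open potassium channels. Chrm1 is abundant on forebrain principal neurons, and Chrm2 is known as a presynaptic autoreceptor as well as a receptor on some cortical neurons.

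The genes are placed by GENCODE M21 on GRCm38, the assembly also called mm10, which the submitters' processing notes name. Chrna5 (chr9:54980880-55007779, plus strand) and Chrna3 (chr9:55010111-55026562, minus strand) lie end to end with 2331 bp between them, and Chrnb4, also on the minus strand, lies 1591 bp beyond Chrna3. Chrnb3 (chr8:27368711-27399730, plus strand) lies 3481 bp from Chrna6. Chrna4 (chr2:181018380-181043546, minus strand) and Chrm4 (chr2:91927249-91928688, plus strand) share only a chromosome. The others are Chrna7 (chr7:63098692-63212569, minus strand), Chrnb2 (chr3:89746195-89764632, minus strand), Chrm1 (chr19:8663789-8683587, plus strand), Chrm2 (chr6:36388084-36528414, plus strand) and Chrm3 (chr13:9875486-10360847, minus strand). All 10 are annotated as protein-coding. Chrnb2 overlaps Adar on the opposite strand over 7252 bp, and since the strand setting of the counting is not given in the sources used here, its counts could include reads of Adar.

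RefSeq start sites (GRCm38.p6) were found for 8 of the 10, and not for Chrnb3 and Chrm1. For Chrm4 and Chrna4 they lie away from the gene ends given by GENCODE. Promoters of 4 genes are printed because they carry the contrasts that follow: Chrm4 and Chrna4, both higher with hypidone than with MCAO, Chrna5, which was lower with MCAO than in control, and Chrnb2, the partner of Chrna4, whose groups overlapped. Each runs from 250 bases before the start to 50 after it, 5′ to 3′ on the strand of the gene, with GC boxes (GGGCGG, or CCGCCC on the other strand) in capitals. They span chr2:91921939-91922238 (Chrm4, plus strand), chr2:181039128-181039427 (Chrna4, minus strand), chr9:54980630-54980929 and chr9:54981238-54981537 (the 2 starts of Chrna5, plus strand) and chr3:89764583-89764882 (Chrnb2, minus strand).
Chrm4: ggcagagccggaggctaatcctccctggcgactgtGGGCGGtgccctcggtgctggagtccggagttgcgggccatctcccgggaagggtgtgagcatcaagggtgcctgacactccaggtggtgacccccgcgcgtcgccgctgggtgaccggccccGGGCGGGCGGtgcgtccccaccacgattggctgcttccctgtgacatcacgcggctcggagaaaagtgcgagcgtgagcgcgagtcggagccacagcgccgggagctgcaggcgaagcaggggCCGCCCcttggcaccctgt
Chrna4: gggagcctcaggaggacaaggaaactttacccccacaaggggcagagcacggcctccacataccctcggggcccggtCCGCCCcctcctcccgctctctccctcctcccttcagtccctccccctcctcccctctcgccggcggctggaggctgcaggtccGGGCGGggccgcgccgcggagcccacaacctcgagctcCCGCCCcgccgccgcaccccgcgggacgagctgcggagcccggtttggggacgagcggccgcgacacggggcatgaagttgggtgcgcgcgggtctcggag
Chrna5 start 1: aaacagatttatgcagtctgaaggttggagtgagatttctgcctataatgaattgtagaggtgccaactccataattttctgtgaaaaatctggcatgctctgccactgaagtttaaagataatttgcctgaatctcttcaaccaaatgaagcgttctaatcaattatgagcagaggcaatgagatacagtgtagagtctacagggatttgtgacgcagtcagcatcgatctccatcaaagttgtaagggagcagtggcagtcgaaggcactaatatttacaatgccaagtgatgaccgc
Chrna5 start 2: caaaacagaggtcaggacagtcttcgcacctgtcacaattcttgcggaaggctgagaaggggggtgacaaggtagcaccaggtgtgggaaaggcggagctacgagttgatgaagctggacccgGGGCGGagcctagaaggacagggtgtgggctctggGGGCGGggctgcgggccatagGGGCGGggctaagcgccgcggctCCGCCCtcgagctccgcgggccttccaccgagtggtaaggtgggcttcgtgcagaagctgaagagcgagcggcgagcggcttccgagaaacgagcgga
Chrnb2: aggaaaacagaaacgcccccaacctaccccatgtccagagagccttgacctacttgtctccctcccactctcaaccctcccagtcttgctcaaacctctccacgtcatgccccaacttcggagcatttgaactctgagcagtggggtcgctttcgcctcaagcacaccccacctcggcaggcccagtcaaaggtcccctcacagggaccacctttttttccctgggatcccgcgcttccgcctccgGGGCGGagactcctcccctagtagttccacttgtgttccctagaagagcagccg
Chrm4 held 4 GC boxes, of which a pair overlaps in the longer run of capitals, Chrna4 held 3 and Chrnb2 held 1. The first start of Chrna5 held 0 and the second 4. The motif is common, with at least 1 match in 35.7% of 32851 promoters of this length. GC content was 70.7% for Chrm4, 74.3% for Chrna4, 41.3% and 65.0% for the Chrna5 starts and 59.0% for Chrnb2, against a median of 52.7% over all promoters. Neither a TATA box (TATAAA, in 13.6% of all promoters) nor a cyclic AMP response element (TGACGTCA, in 1.79%) was found in the promoters of the 8 genes, on either strand. The EGR motif GCGNGGGCG, in 5.55% of all promoters, was found once, in that of Chrna7. A match is only a match of letters.

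Libraries held 32075682 (control 4) to 37325027 (MCAO 4) gene counts. They were uneven within groups: the biological coefficient of variation was 14.5% in hypidone, 41.5% in MCAO and 29.4% in control libraries. Control 5 stood apart from control 4 and 6 in markers of hippocampal neurons. Their summed level over 10 genes was 1131 CPM (read counts per library size, scaled with TMM). It was 197.6 to 211.3 CPM in hypidone, 270.0 to 336.9 CPM in MCAO and 175.2 and 180.9 CPM in the other controls. The 6 choroid plexus and 8 oligodendrocyte markers summed to 193.8 and 7482 CPM in control 5, and at most 16.5 and 4802 CPM elsewhere. The 12 cortical excitatory markers summed to 7244 CPM in control 5 and to 6866 and 6849 CPM in control 4 and 6. Single genes of this list went both ways. The upper-layer genes Rorb and Cux2 were at 19.1 and 20.8 CPM in control 5 and at no less than 28.1 and 101 CPM elsewhere. Neurod6 was at 298 CPM in control 5 and at no more than 93.3 CPM elsewhere. MCAO 5 and 6 stood apart from MCAO 4 in reactive astrocyte genes, with summed levels of 4870 and 4602 CPM against 759.5 CPM, and in microglial and macrophage genes, with 4395 and 1971 CPM against 843.9 CPM. What these differences contribute to the results on the receptors was not tested, and fits without each library are given beside those that change. In whole tissue, fewer cells of a type and less RNA per cell cannot be told apart.

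Per length, the mean FPKM of Chrm1 and Chrm3 was above that of each of the 6 nicotinic genes in every group, while that of Chrm2 was below Chrnb2 in every group and below Chrna4 and Chrna7 in hypidone and control libraries. Chrm1 was the highest of the 10 in every library, with 39.9 ± 2.50 FPKM (read fragments scaled by gene length and library size, the authors' values) in hypidone, 23.4 ± 5.23 FPKM in MCAO and 40.7 ± 3.28 FPKM in control libraries (SD, n = 3 each). Chrm3 was next in every library. In control libraries the order by mean FPKM was Chrm1, Chrm3, Chrm4, Chrnb2, Chrna4, Chrna7, Chrm2, Chrnb3, Chrna5 and Chrna3, and between neighbours only Chrm1 and Chrm3, and Chrna5 and Chrna3, did not overlap. The order in hypidone libraries was the same, with an overlap only between Chrnb2 and Chrna4. Among MCAO libraries it was Chrm1, Chrm3, Chrnb2, Chrm4, Chrm2, Chrna4, Chrna7, Chrna5, Chrnb3 and Chrna3. Chrna3, a subunit best known from autonomic ganglia and the habenula, was lowest in 8 of 9 libraries, and Chrnb3 was lowest in MCAO 6.

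**Figure D1:**
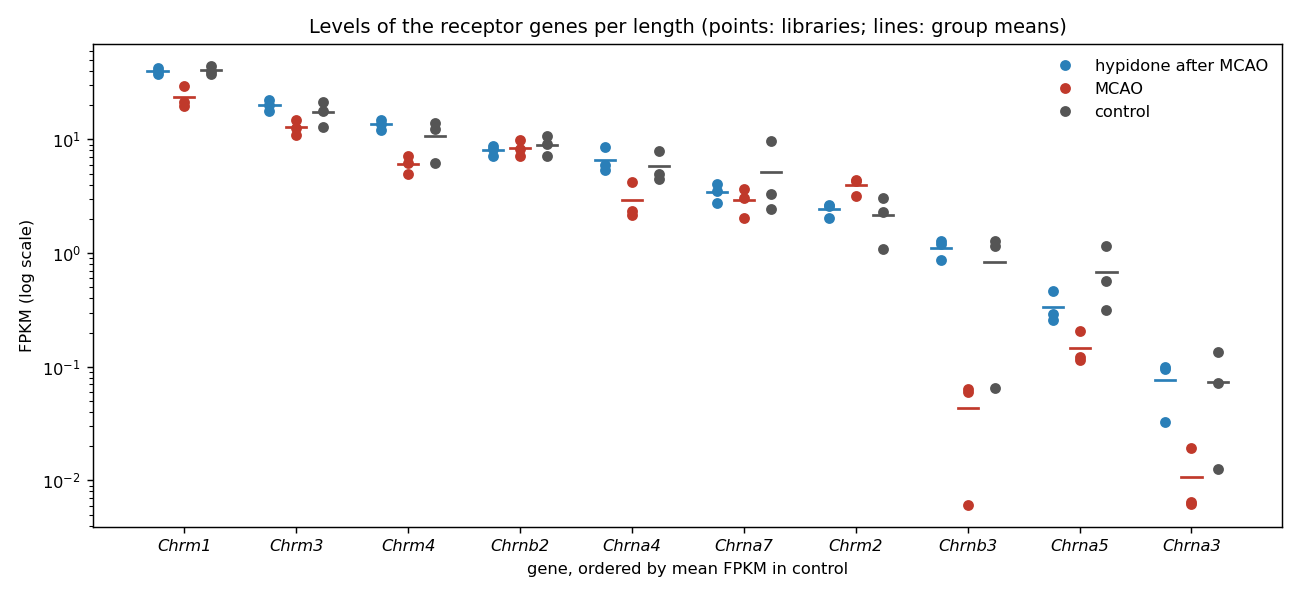
FPKM of the 10 receptor genes on a log scale, one point per library, with hypidone, MCAO and control side by side for each gene and a line at each group's mean. Chrm1 is highest throughout, and the widest gaps between groups are those of Chrnb3, where the 3 MCAO libraries and control 5 lie far below the rest.

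The first comparison, MCAO against control, sets occlusion surgery against controls for which no sham operation is stated. Of the 10 genes 3 were lower with MCAO (Chrna5, Chrnb3 and Chrm1) and 0 were higher at an adjusted p under 0.05 in the edgeR quasi-likelihood test with Benjamini-Hochberg adjustment over all genes. Over all 14756 genes 20.4% were called, 10.6% as higher and 9.81% as lower. The count of receptor genes called lower was 6 without control 5 (Chrna3 and Chrnb3 among them) and 5 without MCAO 4 (Chrnb3 among them). It was 1 without control 4 or control 6 and 0 without MCAO 6. Over all genes the count called lower also moved between fits without 1 library, from 594 to 1918. These shifts are therefore not read as particular to the receptors. The median log2 fold change was -0.85 over the 10 genes and 0.011 over all genes tested. Leaving aside Chrna3 and Chrnb3, which passed the filter through the groups where they were high, 2 of 8 were called lower and the median was -0.83. Groups did not overlap for Chrna5 and Chrm1, both lower, where 33.5% of all genes did not overlap, 16.5% as higher and 17.0% as lower. The authors' deposited table lists the same 3 genes as lower at a q under 0.05.

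The second, hypidone after MCAO against MCAO, sets the drug after surgery against surgery for which no vehicle is stated. Higher in hypidone libraries were 4 of the 10 (Chrna4, Chrnb3, Chrm1 and Chrm4), and 0 were lower. Called genes made up 16.5% of all genes, 8.23% as higher and 8.28% as lower. The count of receptor genes called higher was 6 without control 5 (again with Chrna3 and Chrnb3) and 2 without MCAO 5 (Chrnb3 among them). It was 0 without MCAO 6 or any 1 hypidone library. Over all genes the count called higher also moved between fits without 1 library, from 315 to 1752. These shifts too are not read as particular to the receptors. The median log2 fold change was 0.98 over the 10 genes and -0.035 over all genes tested. Without Chrna3 and Chrnb3, 3 of 8 were called higher and the median was 0.72. Groups did not overlap for 7 genes that were higher (Chrna3, Chrna4, Chrna5, Chrnb3, Chrm1, Chrm3 and Chrm4) and 1 that was lower (Chrm2), where 39.9% of all genes did not overlap, 20.9% as higher and 19.0% as lower. Without Chrna3 and Chrnb3, which passed the filter through the groups where they were high, 5 of 8 were higher and 1 lower without overlap. The authors' deposited table lists 6 as higher at a q under 0.05, adding Chrna5 and Chrm3, and Chrm2 as lower. Both comparisons use the same MCAO libraries, so a value that is extreme in MCAO enters both.

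**Figure D2:**
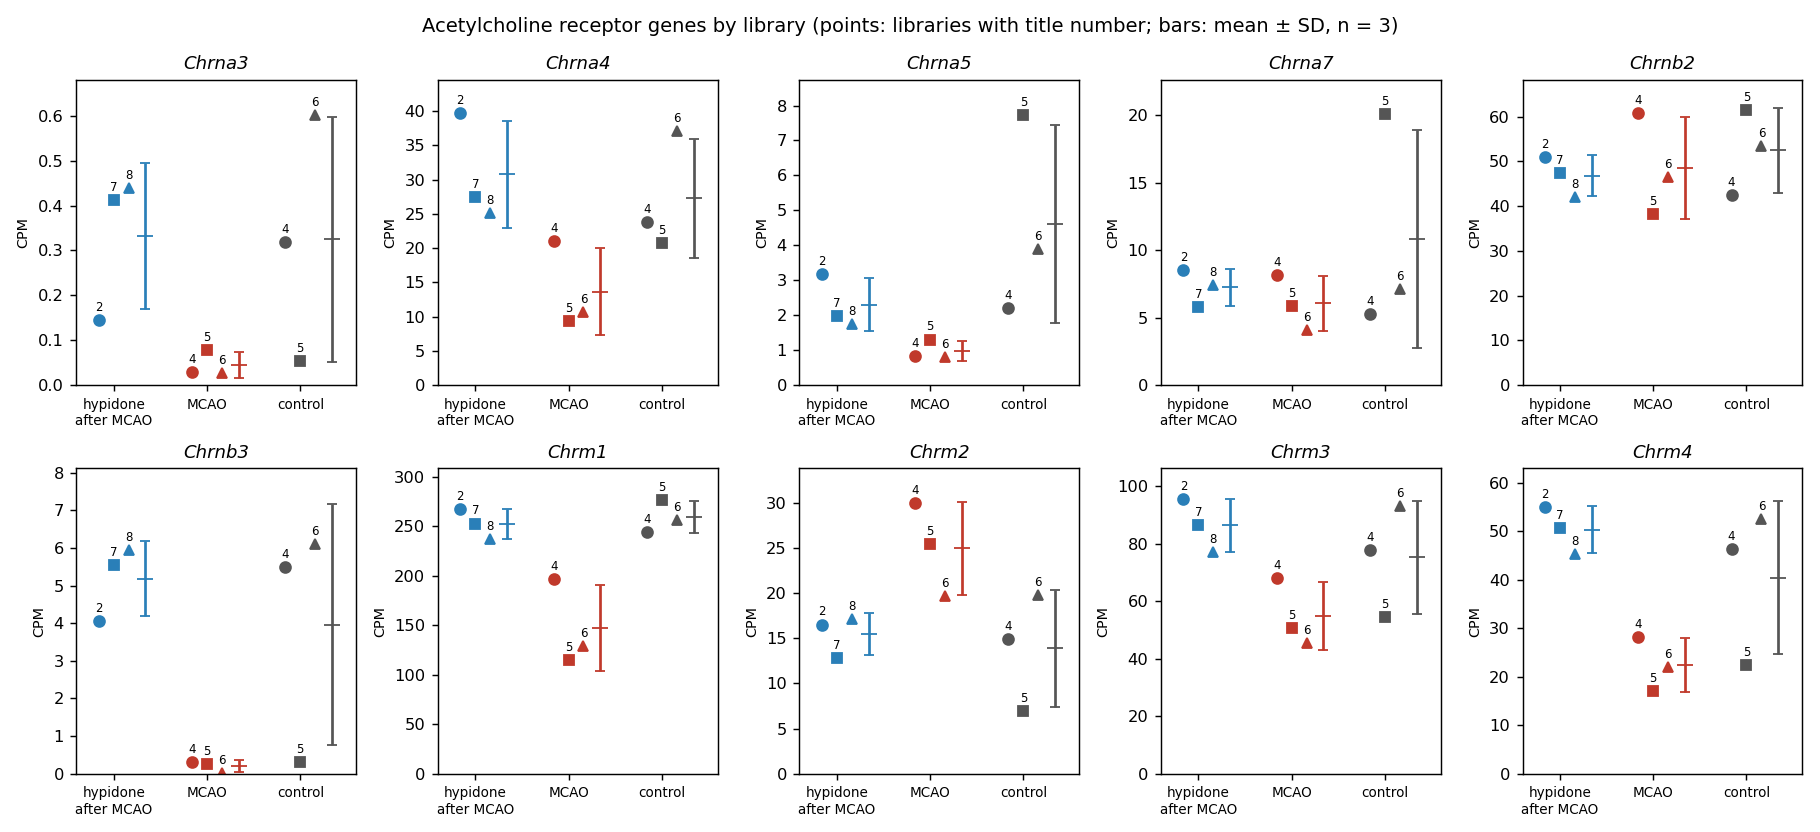
CPM of each receptor gene in each library, with the vertical axis starting at 0, points numbered by library title and bars at the mean ± SD of 3 libraries per group. Chrm1 and Chrna5 are lowest in MCAO libraries, and Chrnb3 in control 5 sits with the MCAO libraries. Chrm2 has its highest mean with MCAO, though control 6 is level with MCAO 6.

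Chrm1, the main Gq-coupled muscarinic receptor of cortex and hippocampus, had 267, 253 and 237 CPM in hypidone 2, 7 and 8. It had 196, 115 and 129 CPM in MCAO 4, 5 and 6 and 244, 277 and 256 CPM in control 4, 5 and 6. All 3 MCAO libraries lay below the 6 others, while hypidone and control libraries overlapped. Chrm1 fell by 0.82 ± 0.19 on the log2 scale with MCAO against control (SE, edgeR adjusted p = 0.0201, 95% interval -1.25 to -0.39), and was higher by 0.78 ± 0.19 with hypidone against MCAO (edgeR adjusted p = 0.0261). In both comparisons the direction held without any single library, but the first call was lost without MCAO 6, control 4 or control 6 (adjusted p between 0.0524 and 0.0826). The second was lost without MCAO 6 or any 1 hypidone library (adjusted p between 0.0772 and 0.108).

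Chrm3, the other Gq-coupled receptor, known also from glands and smooth muscle, had 95.7, 86.5 and 77.0 CPM in hypidone libraries, 68.2, 50.7 and 45.5 CPM in MCAO libraries and 78.0, 54.5 and 93.3 CPM in controls. Every hypidone library was above every MCAO library, and control 5 lay within the MCAO range. The log2 fold change was -0.46 ± 0.22 for MCAO against control (edgeR adjusted p = 0.157) and 0.66 ± 0.22 for hypidone against MCAO (edgeR adjusted p = 0.0657). Without control 5 both passed the threshold, at -0.65 (adjusted p = 0.0455) and 0.66 (adjusted p = 0.0295).

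Chrm4, a Gi-coupled receptor prominent on striatal neurons and also found in cortex, had 55.0, 50.7 and 45.3 CPM in hypidone libraries. Values were 28.1, 17.0 and 22.1 CPM in MCAO and 46.4, 22.5 and 52.5 CPM in control libraries. Hypidone values were all above the MCAO values, and control 5 again sat among the MCAO libraries. Chrm4 was 2.25-fold higher with hypidone than with MCAO, a log2 fold change of 1.17 ± 0.30 (edgeR adjusted p = 0.0314). This call was lost without MCAO 5 or 6 or any 1 hypidone library (adjusted p between 0.0587 and 0.105). With MCAO against control the log2 fold change was -0.85 ± 0.30 (edgeR adjusted p = 0.0717), and it passed the threshold without control 5, at -1.15 (adjusted p = 0.0103), and without MCAO 4, at -1.06 (adjusted p = 0.0452). The striatal markers Drd1 and Adora2a were low in all libraries, at 3.08 to 7.66 CPM and 0.604 to 1.88 CPM.

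Chrm2, the Gi-coupled receptor that serves as an autoreceptor on cholinergic terminals, was the 1 gene of the 10 with a positive log2 fold change for MCAO against control. It had 16.5, 12.8 and 17.1 CPM in hypidone, 29.9, 25.4 and 19.7 CPM in MCAO and 14.9, 6.92 and 19.8 CPM in control libraries. MCAO values lay above all hypidone values, and control 6 was level with MCAO 6. The log2 fold change was 0.85 ± 0.34 for MCAO against control (edgeR adjusted p = 0.104) and -0.69 ± 0.34 for hypidone against MCAO (edgeR adjusted p = 0.18). Without control 5 the hypidone difference passed the threshold (-0.69, adjusted p = 0.0464). As a ratio of FPKM, Chrm2 to Chrm1 was 0.0502 to 0.0714 in hypidone, 0.15 to 0.218 in MCAO and 0.0247 to 0.0762 in control libraries, so MCAO libraries lay above both other groups without overlap. This ratio was looked at after the values were seen and has no test.

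Chrna4, the ligand-binding partner of Chrnb2, had 39.7, 27.5 and 25.1 CPM in hypidone libraries. MCAO libraries had 21.0, 9.35 and 10.6 CPM and controls 23.8, 20.8 and 37.1 CPM. All hypidone values were above all MCAO values, and MCAO 4 lay just above control 5. Chrna4 was 2.25-fold higher with hypidone than with MCAO, a log2 fold change of 1.17 ± 0.35 (edgeR adjusted p = 0.0498), close to the threshold. The call was lost without any 1 of MCAO 5, MCAO 6, control 4, control 6 and the 3 hypidone libraries (adjusted p between 0.0548 and 0.167). For MCAO against control the log2 fold change was -0.997 ± 0.348 (edgeR adjusted p = 0.0708), and -1.45 without MCAO 4 (adjusted p = 0.0102).

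Chrnb2, the structural subunit of the same receptor, had 51.0, 47.5 and 42.0 CPM in hypidone, 60.8, 38.3 and 46.4 CPM in MCAO and 42.5, 61.4 and 53.5 CPM in control libraries. All 3 groups overlapped. Its log2 fold change was -0.11 ± 0.19 for MCAO against control (95% interval -0.55 to 0.32) and -0.050 ± 0.19 for hypidone against MCAO (95% interval -0.49 to 0.39), and both signs turned with single libraries left out. The ratio of Chrna4 to Chrnb2 FPKM was 0.721 to 0.966 in hypidone, 0.284 to 0.430 in MCAO and 0.421 to 0.863 in control libraries. Hypidone and MCAO did not overlap in it, and control 5, at 0.421, fell just below MCAO 4, at 0.430. The ratio has no test and was chosen after its values were seen.

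**Figure D3:**
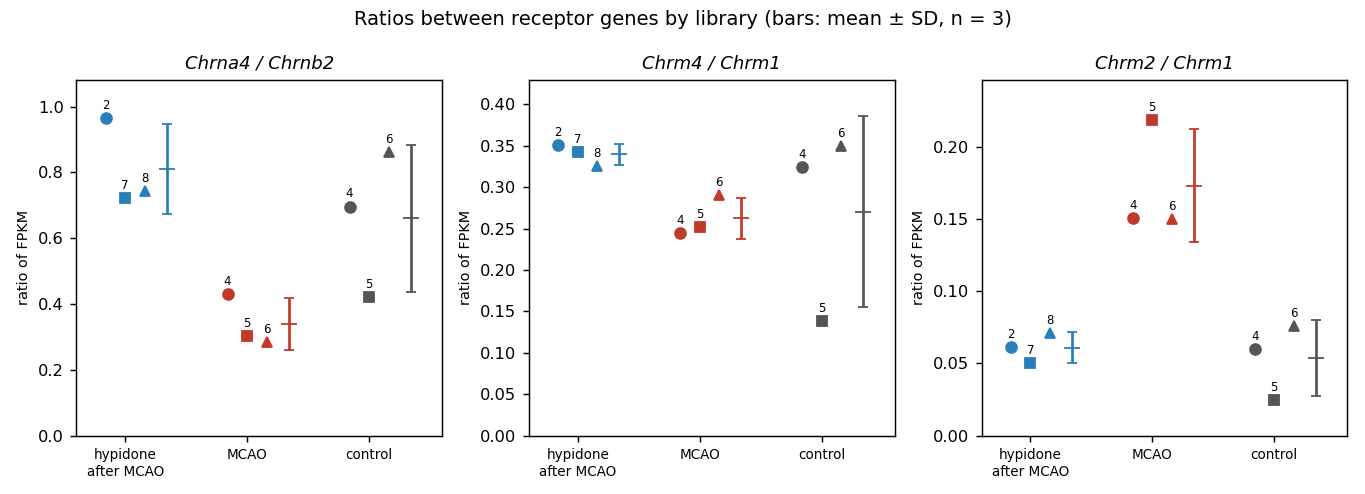
Ratios of FPKM between receptor genes in each library (points, numbered by library title) with the mean ± SD of 3 libraries per group. Chrna4 to Chrnb2 is lowest in MCAO 6 at 0.284, Chrm4 to Chrm1 is lowest in control 5 at 0.139, and Chrm2 to Chrm1 lies between 0.15 and 0.218 in the MCAO libraries and at 0.0762 or less elsewhere.

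Chrna5, an accessory subunit that joins receptors of Chrna4 and Chrnb2, had 3.17, 1.98 and 1.76 CPM in hypidone 2, 7 and 8. It had 0.825, 1.30 and 0.796 CPM in MCAO 4, 5 and 6 and 2.20, 7.74 and 3.91 CPM in control 4, 5 and 6. MCAO libraries were the lowest 3 of the 9, and control 5 was the highest. Chrna5 fell by 2.24 ± 0.50 on the log2 scale with MCAO against control (edgeR adjusted p = 0.0178). Without control 5 it fell by 1.65 (adjusted p = 0.0369), and without MCAO 6 the call was lost (adjusted p = 0.0669). For hypidone against MCAO the log2 fold change was 1.24 ± 0.49 (edgeR adjusted p = 0.112). Against control it was -1.005 ± 0.482 in hypidone libraries, not past the threshold (95% interval -2.09 to 0.084), and -0.41 without control 5.

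Chrna3 was covered by few reads: 5, 14 and 15 counts in hypidone, 1, 3 and 1 in MCAO and 10, 2 and 20 in control libraries. It passed the filter on low counts through its hypidone and control libraries. Hypidone values, 0.144 to 0.439 CPM, were above the MCAO values, 0.0275 to 0.0781 CPM, and control 5, at 0.0543 CPM, sat within the MCAO range. The log2 fold change was -2.74 ± 0.97 for MCAO against control (edgeR adjusted p = 0.0733) and 2.78 ± 0.97 for hypidone against MCAO (edgeR adjusted p = 0.0765). Without control 5 they were -3.26 and 2.79. Since a gene with so few reads in MCAO libraries enters the test only where other groups are higher, no call of Chrna3 is read here.

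Chrnb3, an accessory subunit known from dopaminergic, habenular and retinal neurons, had the largest fold changes of the 10 genes in the first and second comparisons. It had 4.06, 5.55 and 5.95 CPM in hypidone libraries (141, 188 and 203 counts). MCAO libraries had 0.313, 0.261 and 0.0275 CPM (11, 10 and 1 counts), and controls 5.49, 0.299 and 6.10 CPM (172, 11 and 203 counts). The values fell into a high set of 5 libraries and a low set of 4, and control 5 was in the low set, level with MCAO 4 and 5. Like Chrna3, the gene passed the filter on low counts through the libraries where it was high. Chrnb3 fell by 4.28 ± 1.05 on the log2 scale with MCAO against control (edgeR adjusted p = 0.0238) and was higher by 4.67 ± 1.07 with hypidone against MCAO (edgeR adjusted p = 0.0214). With no filter on low counts the log2 fold changes were -4.29 (adjusted p = 0.0228) and 4.68 (adjusted p = 0.0202). Without control 5 the changes were -4.84 (adjusted p = 0.00502) and 4.67 (adjusted p = 0.00382). The first call was lost without control 4, control 6 or MCAO 6 (adjusted p between 0.0666 and 0.0728), and the second without MCAO 6 or any 1 hypidone library (adjusted p between 0.0607 and 0.0705). Its neighbour Chrna6 had 0.0879 to 0.950 CPM in hypidone, 0 to 0.142 CPM in MCAO and 0.109 to 0.511 CPM in control libraries, which overlapped. The 6 dopaminergic markers summed to 28.9 to 54.6 CPM in hypidone, 17.0 to 43.7 CPM in MCAO and 38.4 to 82.0 CPM in control libraries. Only 3 of them were tested, and Slc6a3 and Pitx3, of the dopamine transporter and a factor of midbrain dopamine neurons, had at most 6 and 8 counts in any library. Ddc, a decarboxylase also used by serotonin neurons, was called in the opposite direction to Chrnb3, higher by 1.83 with MCAO against control (edgeR adjusted p = 0.00619) and lower, at -1.98, with hypidone against MCAO (edgeR adjusted p = 0.0059). Nr4a2 had the sign of Chrnb3 with MCAO against control, without overlap of groups but not called (-1.51, edgeR adjusted p = 0.0907). Th was not called either (0.22, edgeR adjusted p = 0.812). With hypidone against MCAO, Ddc was the only call of this list. The 12 thalamic and habenular markers summed to 233.6 to 244.6 CPM in hypidone, 197.2 to 231.2 CPM in MCAO and 170.6 to 241.4 CPM in control libraries. Of the 10 tested, Nwd2 and Slc17a6 were lower with MCAO against control (log2 fold changes -1.57 and -1.52, edgeR adjusted p = 0.00563 and 0.0327) and higher with hypidone against MCAO (2.00 and 1.80, edgeR adjusted p = 0.00419 and 0.0221), while Prkcd was called the other way in both (1.79 and -1.80). The defining habenular markers Gpr151 and Pou4f1 had at most 29 and 4 counts. The part of these cells in the Chrnb3 result was not tested.

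Chrna7, the subunit of the homomeric calcium-permeable receptor, had 8.52, 5.81 and 7.44 CPM in hypidone, 8.19, 5.89 and 4.09 CPM in MCAO and 5.27, 20.1 and 7.12 CPM in control libraries. Control 5 was by far the highest library, and the other 8 overlapped. The log2 fold change for MCAO against control was -0.84 ± 0.48 (edgeR adjusted p = 0.236), and -0.037 without control 5 (adjusted p = 0.946). For hypidone against MCAO it was 0.26 ± 0.48 (edgeR adjusted p = 0.732, 95% interval -0.82 to 1.34).

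**Figure D4:**
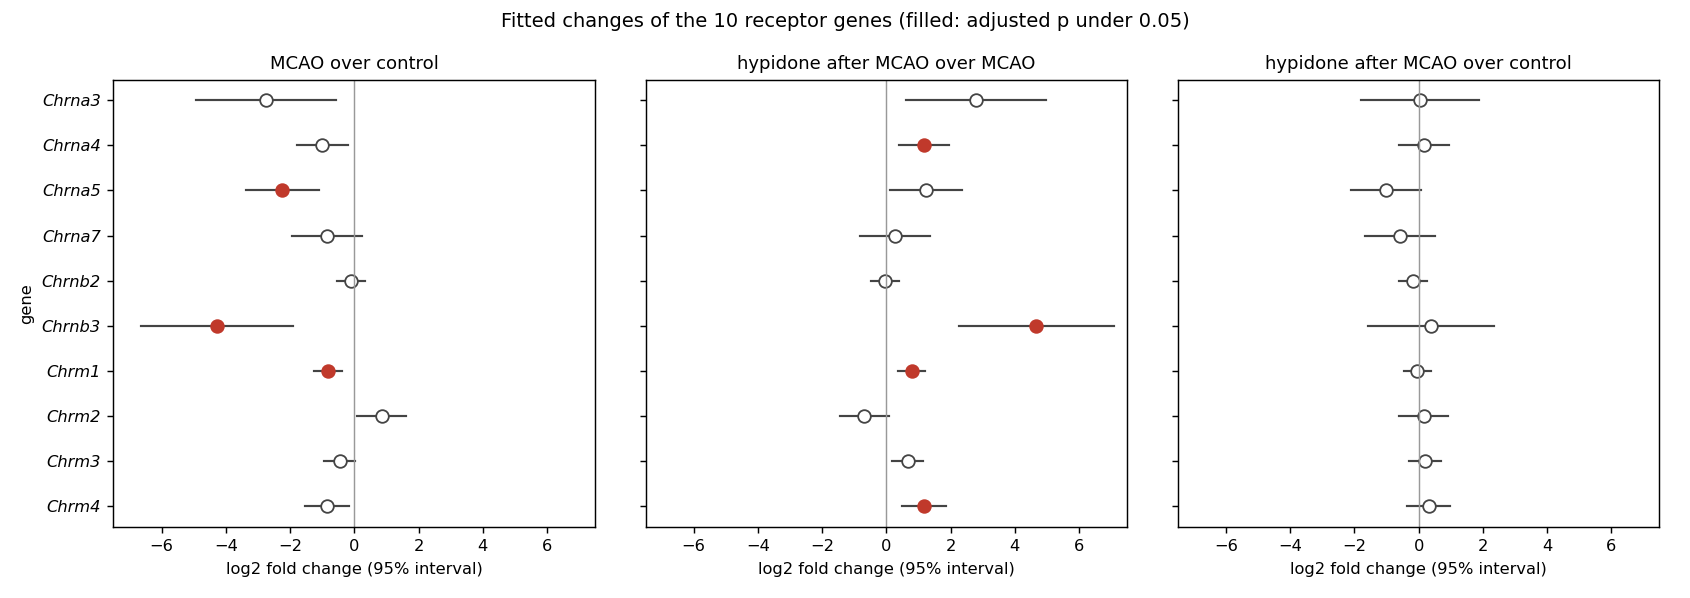
Log2 fold changes of the 10 receptor genes with 95% intervals from the edgeR fit, for MCAO over control, hypidone over MCAO and hypidone over control, filled where the adjusted p is under 0.05. In the third panel no interval excludes 0, and those of Chrna3 and Chrnb3 span more than 3 log2 units.

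Hypidone against control gave no call, for these 10 genes or for any of the 14756 (edgeR, 0.00% called, with 131 genes at an unadjusted p under 0.05 and none of the 10 among them, DESeq2 calling 1 gene, not one of the 10). All 10 receptor genes overlapped between these groups, while 6.57% of all genes did not, 3.86% as higher and 2.71% as lower. The median log2 fold change was 0.099 over the 10 genes and -0.0065 over all genes. The narrowest intervals were those of Chrm1, -0.47 to 0.39, and Chrnb2, -0.60 to 0.27, and the widest was that of Chrnb3, -1.59 to 2.36. These intervals do not show that hypidone and control libraries were alike.

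A fit of only the MCAO and control libraries called none of the 10, with an adjusted p of 0.0622 for Chrna5, 0.0815 for Chrnb3 and 0.0704 for Chrm1. The same fit of hypidone and MCAO libraries called Chrnb3 (adjusted p = 0.0149) and Chrm4 (0.0183), and not Chrna4 (0.0635) or Chrm1 (0.0518). Markers of neurons in general had summed levels of 13090 to 14520 CPM in hypidone, 6741 to 12770 CPM in MCAO and 10470 to 15000 CPM in control libraries. Of these 12 genes 1 was called lower with MCAO against control, where 9.81% of all genes were, and 2 higher with hypidone against MCAO, where 8.23% were, with median log2 fold changes of -0.41 and 0.39. The 10 interneuron markers summed to 1798 to 2026 CPM in hypidone, 912 to 1493 CPM in MCAO and 1591 to 2014 CPM in control libraries, with 2 called lower with MCAO against control and 2 higher with hypidone against MCAO. Reactive astrocyte genes went the other way, with 10 of 10 called higher with MCAO against control and 8 of 10 lower with hypidone against MCAO. Of 12 microglial and macrophage genes 8 were called higher with MCAO against control and 8 lower with hypidone against MCAO. The 5 red blood cell genes had log2 fold changes of the same sign as most receptor genes in both comparisons, with summed levels of 71.3 to 186.5 CPM in hypidone, 4.31 to 28.0 CPM in MCAO and 41.9 to 72.8 CPM in control libraries. All 5 were called higher with hypidone against MCAO (median log2 fold change 3.59) and 0 with MCAO against control (median -1.84). The part of these cell types in the receptor results was not tested.

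The rest of cholinergic transmission was described from lists. Of 8 genes for making, transporting and breaking down acetylcholine 6 were tested and 0 called in any comparison. Over all genes the shares called were 20.4%, 16.5% and 0.00% in the 3 comparisons, so 0 of so few genes says little. The lowest edgeR adjusted p of this list was 0.052, with hypidone against MCAO. Chat, which makes acetylcholine, had 6 to 12 counts in hypidone, 4 to 6 in MCAO and 2 to 6 in control libraries. Ache, which breaks it down, had 25.8 to 26.4 CPM in hypidone, 14.3 to 28.4 CPM in MCAO and 28.1 to 32.8 CPM in control libraries. Of 11 other receptor genes 9 were in the count table, 5 were tested and 0 called, beside the same shares of all genes, and none exceeded 2.81 CPM in any library.

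Among 10 chaperones and Ly6-type modulators of nicotinic receptors 0 were called higher and 2 lower with MCAO against control, where 9.81% of all genes were called lower. Tmem35a, a chaperone needed for the assembly of Chrna7 receptors, averaged 38.2 ± 9.94 CPM in MCAO and 62.1 ± 4.46 CPM in control libraries, a log2 fold change of -0.70 ± 0.18 (edgeR adjusted p = 0.0274). Lynx1, a membrane-tethered protein that dampens nicotinic receptors, averaged 543 ± 35.2 CPM in hypidone, 313 ± 96.2 CPM in MCAO and 540 ± 99.3 CPM in control libraries. It fell by 0.79 ± 0.23 on the log2 scale with MCAO against control (edgeR adjusted p = 0.0422) and was the 1 gene of this list called with hypidone against MCAO, higher by 0.80 ± 0.23 (edgeR adjusted p = 0.0465). The list's median log2 fold change was -0.096 in the first comparison and 0.019 in the second. The call of Tmem35a was lost without any 1 of the controls, MCAO 6 or hypidone 2 (adjusted p between 0.0541 and 0.1). Both calls of Lynx1 were lost without control 4, control 6, MCAO 5, MCAO 6 or any 1 hypidone library (adjusted p between 0.0584 and 0.142).

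In the Gq arm, which Chrm1 and Chrm3 use, 2 of 14 genes were called lower with MCAO against control, beside 9.81% of all genes, and 0 higher, with a median log2 fold change of -0.27. Prkca, a protein kinase C isoform, averaged 288 ± 13.4 CPM in hypidone, 169 ± 50.2 CPM in MCAO and 310 ± 40.7 CPM in control libraries. It fell by 0.87 ± 0.20 on the log2 scale with MCAO (edgeR adjusted p = 0.019) and was the 1 gene of the list called with hypidone against MCAO, higher by 0.77 ± 0.20 (edgeR adjusted p = 0.0327). Trpc5, a cation channel that opens downstream of Gq, fell by 1.67 ± 0.41 with MCAO (edgeR adjusted p = 0.0235), with 10.3, 6.23 and 7.58 CPM in MCAO libraries and 17.2, 43.7 and 15.6 CPM in controls, control 5 being the highest. Without control 5 the change of Trpc5 was -1.03 (adjusted p = 0.034). The MCAO call of Prkca was lost without control 4 or MCAO 6, and that of Trpc5 without MCAO 5 or 6 (adjusted p between 0.0509 and 0.0809). The hypidone call of Prkca was lost in the same 7 fits as those of Lynx1 (adjusted p between 0.0513 and 0.129).

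In the Gi arm, which Chrm2 and Chrm4 use, 1 of 13 genes was called lower with MCAO against control and 0 higher, where 9.81% and 10.6% of all genes were. This was Kcnj6, a subunit of the potassium channels that Gi receptors open, at 96.9 ± 6.01 CPM in MCAO and 140.5 ± 28.8 CPM in control libraries, a log2 fold change of -0.54 ± 0.16 (edgeR adjusted p = 0.0411). With hypidone against MCAO 2 were called higher and 1 lower, where 8.23% and 8.28% of all genes were. Rgs4, which speeds the switching off of G proteins, averaged 920 ± 41.8 CPM in hypidone, 219 ± 94.97 CPM in MCAO and 750 ± 486 CPM in control libraries, a log2 fold change of 2.07 ± 0.58 (edgeR adjusted p = 0.0413). Control 5, at 189 CPM, again lay within the MCAO range of 114 to 299 CPM. Kcnj9, another potassium channel subunit, was higher by 1.16 ± 0.34 (edgeR adjusted p = 0.0473), and Arrb2, an arrestin that uncouples receptors, fell by 0.74 ± 0.20 (edgeR adjusted p = 0.0382). Without MCAO 6 or any 1 hypidone library these 4 calls were lost (adjusted p between 0.0622 and 0.14). They were also lost without control 4 for the 3 hypidone calls, control 5 for Kcnj6, control 6 for all 4, and MCAO 5 for all but Arrb2 (adjusted p between 0.0543 and 0.0975). Fits of only the groups compared ended the 5 pathway calls with MCAO against control (adjusted p between 0.0691 and 0.11) and, with hypidone against MCAO, those of Lynx1, Prkca and Arrb2 (adjusted p between 0.0536 and 0.0651). No list gene of either arm was called with hypidone against control.

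For the 4 receptor genes with the lowest p in any comparison, the tested genes with the most alike pattern over the 9 libraries were found by the root mean square difference of log2 CPM, each gene centred on its mean. Nearest to Chrm1 were Agtpbp1 at 0.0697, Dlg3 at 0.0714 and Ptpn3 at 0.0843 log2 units. Nearest to Chrm4 were Kcnj9, a Gi-arm gene, at 0.104, Cds1 at 0.125 and Asic1 at 0.126. Nearest to Chrna5 were Wnt2 at 0.267, Atp10b at 0.322 and Kcng1 at 0.324. Nearest to Chrnb3 were Tcap at 0.648, Olfr464 at 0.795 and Xlr3a at 0.829. Control 5 separated these patterns: relative to the gene's mean over 9 libraries it was at 0.40 for Chrm1 and 1.88 for Chrna5, but at -0.62 for Chrm4 and -1.94 for Chrnb3.

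**Figure D5:**
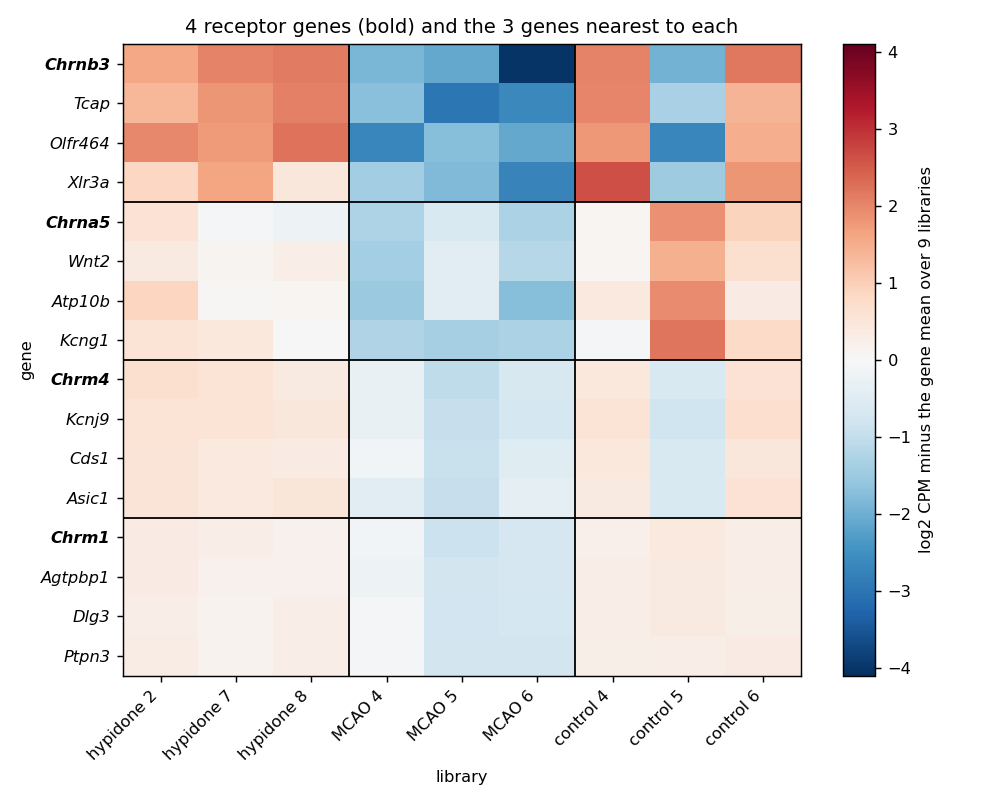
Log2 CPM of 4 receptor genes (bold) and of the 3 genes nearest to each, minus the gene's mean over the 9 libraries, with libraries in columns (hypidone, MCAO, control) and colour running from low (blue) to high (red). The Chrnb3 and Chrm4 blocks are low in control 5 as in the MCAO libraries, and the Chrna5 block is highest in control 5.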

How the data were processed

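RNA came from brain by TRIzol, and a VAHTS kit made the libraries, per the labels' protocols. Deposited by the authors are whole-number counts and FPKM of each gene, and a q-value and fold (a linear ratio) of each gene for the first 2 comparisons. DESeq2 and the mm10 build are named, without role or version, per the submitters' processing notes. The aligner, counting tool and strand setting were not given in the sources used here.

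All 9 count columns matched a sample by title, and groups came from the treatment labels. Library totals of 32075682 to 37325027 set the precision: Chrna3 rests on 1 to 20 counts a library. No library pair of a group agreed within sampling noise (lowest chi-square per degree of freedom 14.9). Genes passing edgeR's filterByExpr (14756 of 18138) were scaled with TMM and fitted over all 9 libraries with 6 residual degrees of freedom (edgeR 4.0.16, R 4.3.3), tested by two-sided quasi-likelihood F tests with Benjamini-Hochberg adjustment at 0.05. Standard errors are the log2 fold change over the root of F. The fit was tested on simulated data. FPKM served only to compare levels between genes. The 10 genes and all lists were chosen with earlier results of these data known. All 10 are named, as are up to 3 called genes per pathway list and comparison with the lowest p and the 3 nearest genes of the 4 receptor genes with the lowest p. Alternatives were DESeq2 size factors or library totals, no filter or CPM of at least 1 in 3 libraries, DESeq2 1.42.0, limma 3.58.1 (voom with quality weights, or log2 of FPKM plus 1 or 0.1), a fit of only the compared groups, a replicate block, and leaving out each library.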

Additional observations from a re-analysis of the deposited data

How the results depend on the processing

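Counts of receptor genes called lower with MCAO against control were 3 as reported, 5 with DESeq2, 7 with voom, 1 with log2(FPKM + 1), 0 with only those groups, and 0 to 6 without 1 library (6 without control 5, 5 without MCAO 4, 0 without MCAO 6). Over all genes, 1567 higher and 1448 lower became 2373 and 2089 with DESeq2, 3645 and 3783 with voom, 345 and 337 with only those groups, and 480 to 2357 higher and 594 to 1918 lower without 1 library. For hypidone against MCAO, 4 receptor genes higher became 7 with voom, 2 with only those groups and 0 to 6 without 1 library, with 0 to 1 lower. In both comparisons the 7 with voom and the 6 without control 5 include Chrna3 and Chrnb3. These passed the filter through the groups where they were high. Over all genes 1215 higher and 1222 lower became 1845 and 2166 with DESeq2, 3916 and 3715 with voom, and 315 to 1752 and 233 to 2123 without 1 library. No count over all genes stands beside the 1 receptor gene with log2(FPKM + 1) or the 2 with only those groups. Those 2 counts are not read as results about the receptors. DESeq2 called 1 gene higher with hypidone against control. The replicate block on title numbers called 0 genes higher and 0 lower with MCAO against control, with 0 receptor genes. Deviations of same-numbered libraries correlated at 0.12, 0.12 and -0.04, and those of differently numbered libraries at -0.15 to 0.12. With 3 libraries a group these values cannot decide whether the numbers pair samples, and no label states a pairing. Of the refitted values of the 10 genes 469 kept sign and side of the threshold, 40 lost it, 19 gained it and 16 changed sign, all of these 16 not called. Without 1 library, Chrnb2 ran from -0.31 to 0.047 with MCAO against control and from -0.21 to 0.15 with hypidone against MCAO. With hypidone against control, values without 1 library ran from -0.47 to 0.84 for Chrna3, -0.049 to 0.46 for Chrna4, -0.91 to 0.23 for Chrna7, -0.16 to 0.84 for Chrnb3, -0.083 to 0.011 for Chrm1 and -0.16 to 0.51 for Chrm2, and voom gave -0.24 for Chrna3, -0.070 for Chrna4 and -0.19 for Chrm2. The cause of these changes was not tested, beyond the smaller number of libraries. Depth limits Chrna3 and, in MCAO libraries, Chrnb3.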
